A study of Mus musculus with 6 samples.

Results

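The 9 genes described here make, break down, carry and sense retinoic acid, and they were chosen by symbol: Aldh1a1, Aldh1a2, Aldh1a3, Rdh10, Cyp26b1, Rarb, Rarg, Crabp1 and Crabp2. All 9 were among the 23718 genes of the deposited table. RNA was sequenced from laser-captured regions of the incisor of mice 1 month old, 1 day after tamoxifen. The labels give the strain as C57BL/6, while the methods describe a mixed background. The mesenchymal stem cell (MSC) group held 3 libraries from Gli1-CreER;tdT mice and the transit amplifying cell (TAC) group held 3 libraries from Axin2-CreER;tdT mice. In both genotypes tamoxifen frees a Cre recombinase that switches on the red reporter tdTomato, in cells using the Gli1 promoter in MSC and the Axin2 promoter in TAC. The captured tissue was cut from sections around the labelled cells, so neighbouring cells could be included, and a lower value in such bulk tissue cannot distinguish fewer cells of a type from less RNA per cell.

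Retinoic acid is a small lipid made from vitamin A that enters the nucleus and acts on gene transcription. Retinol is oxidised to retinaldehyde, mainly by RDH10 in embryonic tissue, and retinaldehyde is then oxidised to retinoic acid by an ALDH1A enzyme. CYP26 enzymes hydroxylate retinoic acid and so end its action, while CRABP proteins hold it in the cytosol. The receptors RARA, RARB and RARG bind DNA with an RXR partner at direct repeats of a short motif. The pathway patterns the neural crest-derived mesenchyme of the face, and vitamin A supply has long been known to affect odontoblasts and enamel in the continuously growing rodent incisor.

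Rarb is both a receptor and a well-known target of its own ligand, so its promoter is shown. The window below runs from 250 bases before to 50 bases after the RefSeq start of Rarb, at chr14:16575427-16575726 on the minus strand of GRCm38.p6, the assembly that mm10 is based on. The capitals mark a direct repeat with a spacer of 5 bases, the arrangement known to bind RAR and RXR.
Rarb promoter: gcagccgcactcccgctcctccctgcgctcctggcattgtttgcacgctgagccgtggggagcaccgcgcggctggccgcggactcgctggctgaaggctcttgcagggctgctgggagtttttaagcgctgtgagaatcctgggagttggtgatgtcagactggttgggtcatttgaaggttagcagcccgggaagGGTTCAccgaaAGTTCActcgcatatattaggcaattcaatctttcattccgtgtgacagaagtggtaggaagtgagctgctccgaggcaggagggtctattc

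The repeat spanned bases 53 to 37 before the start site. The search took any pair of motifs in the same orientation, on either strand, with a spacer of 1, 2 or 5 bases. Each motif could be AGGTCA, the canonical form, or GGGTCA, or AGTTCA as in the second unit of Rarb, or GGTTCA as in its first unit. With a spacer of 5 such a repeat was found in 32 of 32851 promoter windows (0.0974%), with a spacer of 1 in 0.222% and with a spacer of 2 in 0.268%. Promoter windows were held for 6 of the 9 genes, in 8 windows, and Rarb was the only match among them. Aldh1a3, Rdh10 and Crabp2 had no entry. Of the other retinoid genes listed for comparison, the hydroxylase gene Cyp26a1 had a repeat with a spacer of 5, at chr19:37697776-37697792 on the strand opposite to the gene, and Bco1 had a repeat with a spacer of 1. The Rarb and Cyp26a1 elements are set side by side, each read along the strand on which the repeat lies, with the repeated motif in capitals and the spacer in lower case.
Rarb element: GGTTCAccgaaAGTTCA
Cyp26a1 element: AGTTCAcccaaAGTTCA

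The values are read numbers scaled per library and deposited by the authors, without division by gene length, and are listed below in the order of replicates 1, 2 and 3. Estimated reads per library ranged from 20203159 to 108156380. Replicate 3 of both groups stood apart: mitochondrial ribosomal RNA made up 8.28% to 9.07% of reads in replicates 1 and 2 but 0.236% and 0.112% in MSC and TAC replicate 3, and in MSC replicate 3 43.1% of listed genes had no read. Differences are therefore given over all libraries, within replicates 1 and 2, and within replicate 3, where a group has 1 library and no test exists. Tissue identity was checked with 10 dental mesenchyme genes, all detected. Msx1 ranged from 52.8 to 150 and Col1a1 from 1554 to 11167, while Barx1 had no read in MSC replicate 3. Over all libraries the driver genes did not separate the groups. Gli1 was 245 to 422 in MSC and 141 to 396 in TAC, and Axin2 was 12.01 to 58.3 in MSC and 34.1 to 63.9 in TAC. On the log2(value + 1) scale, TAC minus MSC, Gli1 was at -0.77 within replicates 1 and 2 and -0.09 within replicate 3. Axin2 was at 0.18 and 1.43.

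Aldh1a3 and Cyp26b1, which act at opposite ends of the life of retinoic acid, were 7.61 and 6.17 times as high in MSC as in TAC by their means, and only Aldh1a3 passed the adjusted test. Crabp1 had a mean 2.33 times as high in TAC. Whether Aldh1a3, Cyp26b1 and Crabp1 passed depended on the design of the fit and on the libraries used. Tests used limma on log2(value + 1), TAC minus MSC, with p-values adjusted over the 15391 genes tested, all 9 members among them. Of the 9, 1 passed an adjusted p of 0.05 (Aldh1a3), against 0.422% of all genes tested. At an unadjusted p under 0.05 there were 3 members higher in MSC (Aldh1a3, Cyp26b1 and Rdh10) and 1 higher in TAC (Crabp1), where 6.43% and 5.42% of all genes did so. The groups did not overlap for 5 members higher in MSC and for 1 higher in TAC, against 12.2% and 12.3% of all genes tested. The median log2 difference of the 9 was -0.51, beside 0.03 over all genes. With the replicate number as a block, 2 members passed, Aldh1a3 and Crabp1, where 1.49% of all genes did.

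**Figure D1:**
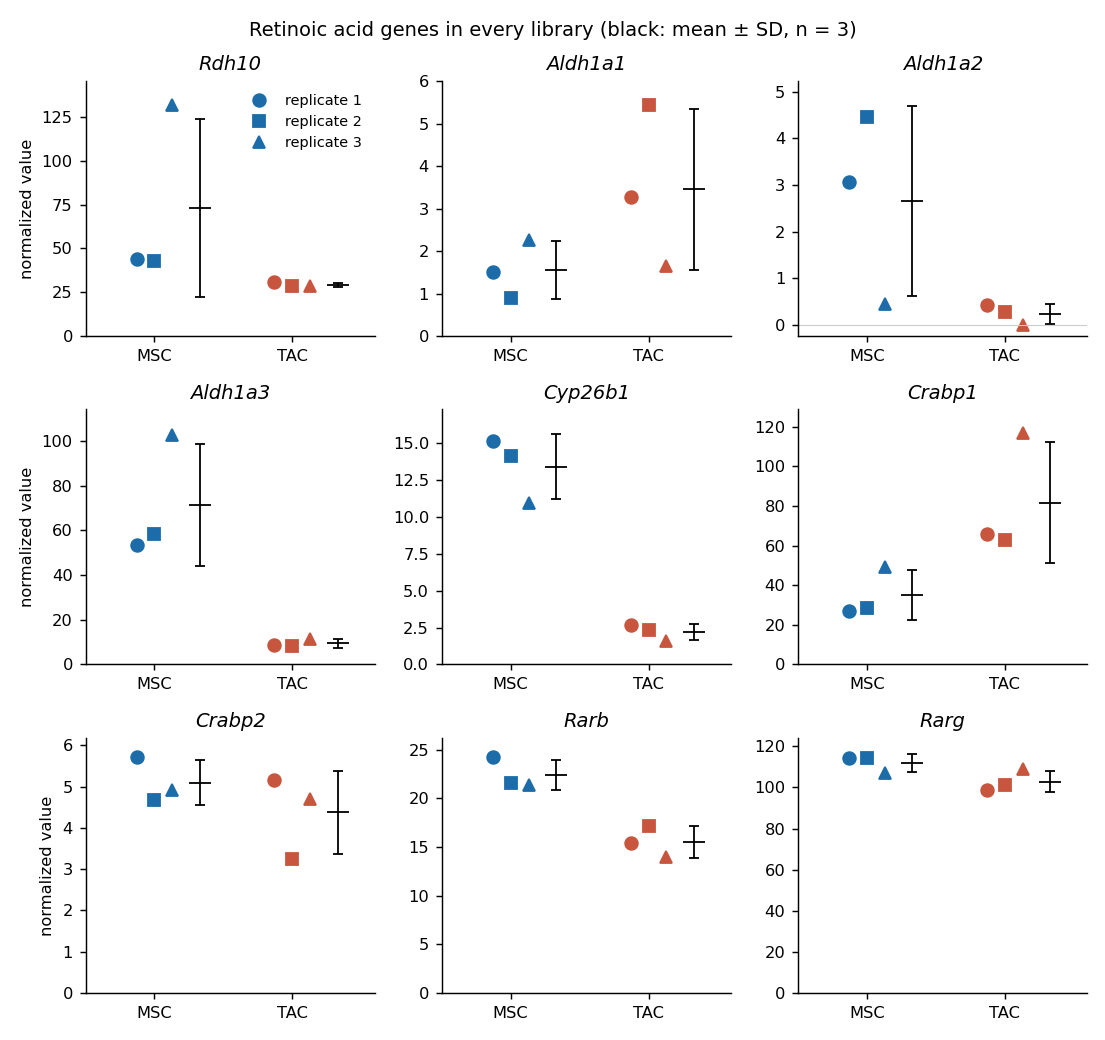
Normalized value (y axis, linear, a separate scale per gene) of each retinoic acid gene in the MSC libraries (blue) and TAC libraries (red), with marker shapes for the replicate number and the mean ± SD in black. All 3 MSC values of Aldh1a3, Cyp26b1, Rdh10, Aldh1a2 and Rarb lie above all TAC values, and Crabp1 shows the opposite order.

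Synthesis comes first. Rdh10 (chromosome 1, 16105774 to 16133734, plus strand), the retinol dehydrogenase of the first oxidation step, measured 43.9, 43.03 and 132 in MSC against 30.6, 28.7 and 28.4 in TAC. Every MSC library exceeded every TAC library, and MSC replicate 3 stood far above the other MSC libraries. The means were 72.9 ± 50.9 in MSC and 29.3 ± 1.19 in TAC (SD, n = 3 each). The log2 difference was -1.08 (SE 0.46, limma adjusted p 0.414), -0.54 between the libraries numbered 1 and 2 and -2.17 between those numbered 3. Without MSC replicate 3 it was -0.56.

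Aldh1a3 (chromosome 7, 66390890 to 66427517, minus strand) encodes a retinaldehyde dehydrogenase that completes synthesis. The gene measured 53.3, 58.4 and 103 in MSC against 8.58, 8.10 and 11.5 in TAC. The lowest MSC library was thus well above the highest TAC library. The means were 71.5 ± 27.2 in MSC and 9.395 ± 1.84 in TAC (SD, n = 3 each), a ratio of 7.61. Aldh1a3 fell by 2.75 on the log2 scale from MSC to TAC (SE 0.35, limma adjusted p 0.0389), -2.60 between the libraries numbered 1 and 2 and -3.05 between those numbered 3. With the replicate block the adjusted p was 0.0327. The call held without MSC replicate 3 and was lost when any other library was left out, at an adjusted p of 0.222 without MSC replicate 1, 0.228 without MSC replicate 2, 0.186 without TAC replicate 1, 0.1995 without TAC replicate 2 and 0.0766 without TAC replicate 3, while the log2 difference stayed between -2.93 and -2.46.

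Aldh1a2 (chromosome 9, 71215789 to 71296243, plus strand), the main retinaldehyde dehydrogenase of embryonic mesoderm, was low throughout. Its values were 3.06, 4.46 and 0.453 in MSC against 0.438, 0.288 and 0.00379 in TAC. These rest on 114, 153 and 67 estimated reads in MSC and on 19, 11 and 0 in TAC. A count of 0 in TAC replicate 3 allows a value of up to 0.0152, that of 3 reads there with the added read, for counting error only. The groups did not overlap, but the lowest MSC library lay only just above the highest TAC library. TAC minus MSC came to -1.37 (SE 0.64, limma adjusted p 0.459), with -1.79 between the libraries numbered 1 and 2 and -0.53 between those numbered 3. Its size depended on the fit, at -2.84 with a pseudocount of 0.1, -0.51 with a pseudocount of 5 and -5.22 with voom.

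Aldh1a1 (chromosome 19, 20601961 to 20643462, plus strand), the remaining dehydrogenase of the family, did not share this direction. It measured 1.52, 0.898 and 2.27 in MSC against 3.28, 5.44 and 1.66 in TAC. The groups overlapped because TAC replicate 3 was below MSC replicate 3. The log2 difference was 0.74 (SE 0.57, limma adjusted p 0.679), 1.26 between the libraries numbered 1 and 2 and -0.30 between those numbered 3. That change of direction between library sets was not tested.

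Of the breakdown enzymes, Cyp26b1 (chromosome 6, 84571414 to 84593908, minus strand), a cytochrome P450 that inactivates retinoic acid, measured 15.1, 14.1 and 10.9 in MSC against 2.65, 2.30 and 1.57 in TAC. Unlike Aldh1a3 and Rdh10, it was not at its highest in MSC replicate 3. The means were 13.4 ± 2.19 in MSC and 2.17 ± 0.549 in TAC (SD, n = 3 each), a ratio of 6.17. TAC minus MSC came to -2.19 (SE 0.45, limma adjusted p 0.119, unadjusted p 0.00162), -2.17 between the libraries numbered 1 and 2 and -2.22 between those numbered 3. With the replicate block the adjusted p was 0.0644, and without MSC replicate 3 it was 0.0454. Leaving out any other library gave an adjusted p of 0.152 to 0.516.

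Of the cytosolic binding proteins, Crabp1 (chromosome 9, 54764748 to 54773110, plus strand), which binds retinoic acid in the cytosol and has been linked to its breakdown, measured 27.2, 28.7 and 49.3 in MSC against 65.9, 62.6 and 117 in TAC. Replicate 3 was the highest library of each group, and all TAC values exceeded all MSC values. The means were 35.04 ± 12.4 in MSC and 81.7 ± 30.3 in TAC (SD, n = 3 each), a ratio of 2.33. The log2 difference was 1.19 (SE 0.37, limma adjusted p 0.268) and nearly the same within the library sets, at 1.17 and 1.23. With the replicate block Crabp1 passed, at an adjusted p of 0.0489. Libraries numbered 1 and 2 deviated together about as strongly across numbers as within them.

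Crabp2 (chromosome 3, 87948666 to 87953376, plus strand), which hands retinoic acid to the nuclear receptors, measured 5.70, 4.67 and 4.91 in MSC against 5.17, 3.24 and 4.71 in TAC. The groups overlapped. Its log2 difference of -0.20 (SE 0.46, limma adjusted p 0.923) was smaller than its error.

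Among the receptors, Rarb (chromosome 14, 16430842 to 16575472, minus strand) measured 24.2, 21.6 and 21.4 in MSC against 15.4, 17.1 and 13.9 in TAC. The groups did not overlap, and both were tight, with means of 22.4 ± 1.58 and 15.5 ± 1.62 (SD, n = 3 each). TAC minus MSC came to -0.51 (SE 0.29, limma adjusted p 0.563), -0.47 between the libraries numbered 1 and 2 and -0.58 between those numbered 3. The deposited Rarb model ended close to the start site of the promoter shown above, while GENCODE M21 extends the gene to 16819156. In M21 the Rarb region also overlaps Top2b on the other strand, which the deposited Top2b model does not reach.

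Rarg (chromosome 15, 102234938 to 102257517, minus strand) had the smallest difference of the 9. It measured 114, 114 and 107 in MSC against 98.7, 101 and 109 in TAC. Its log2 difference was -0.12 (SE 0.24, limma adjusted p 0.905), -0.19 between the libraries numbered 1 and 2 and 0.02 between those numbered 3, and the groups overlapped.

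**Figure D2:**
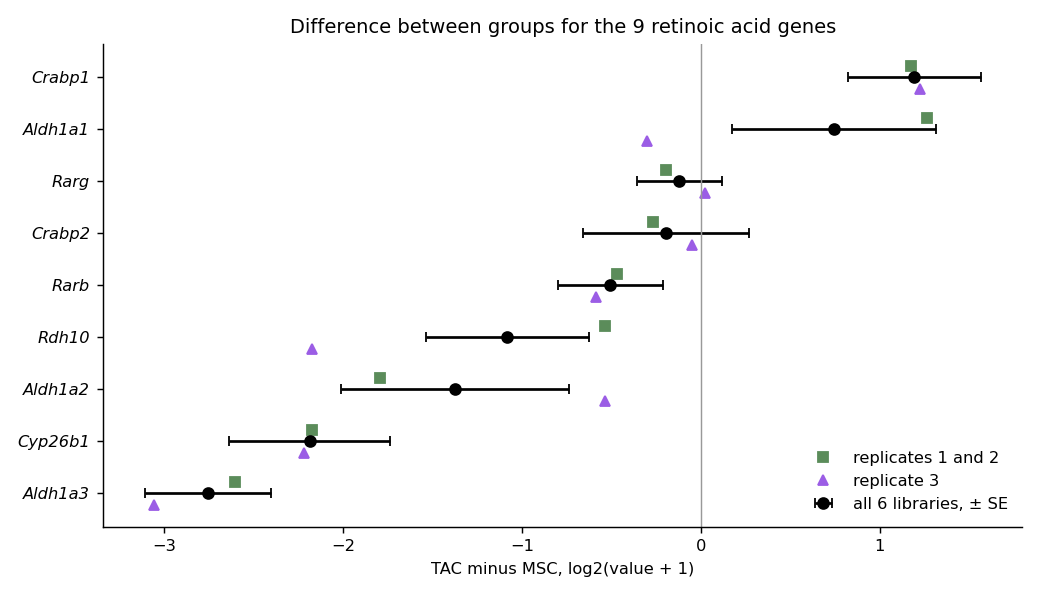
Difference TAC minus MSC on the log2(value + 1) scale (x axis) for each of the 9 genes, over all 6 libraries with its SE (black), within replicates 1 and 2 (green squares) and within replicate 3 (purple triangles). Cyp26b1 and Crabp1 have nearly the same difference in both library sets, Rdh10 and Aldh1a2 differ in size between them, and Aldh1a1 and Rarg change sign.

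Of the 9 members, 7 had the same direction in replicates 1 and 2 as in replicate 3, and the exceptions were Aldh1a1 and Rarg. Over all genes tested, 61.2% had the same direction in both sets, and 60.9% of the 14296 genes with a read in a replicate 3 library. The median difference of the 9 was -0.47 in replicates 1 and 2 and -0.53 in replicate 3, beside -0.046 and 0.042 over all genes tested.

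Levels were also compared between genes, as the normalized value per kb of exon (GENCODE M21 basic exons). Crabp1 had the highest mean in both groups, at 43.7 ± 15.4 in MSC and 102 ± 37.8 in TAC (SD, n = 3 each), followed by Rarg at 32.9 ± 1.26 and 30.3 ± 1.55. In MSC the order went on with Rdh10 (20.3), Aldh1a3 (16.1), Rarb (6.60), Crabp2 (5.47), Cyp26b1 (2.51), Aldh1a2 (1.17) and Aldh1a1 (0.652). Of these neighbours, Rarg and Rdh10, Rdh10 and Aldh1a3, and Aldh1a2 and Aldh1a1 had overlapping ranges. In TAC the order after Rarg was Rdh10 (8.16), Crabp2 (4.69), Rarb (4.57), Aldh1a3 (2.12), Aldh1a1 (1.44), Cyp26b1 (0.406) and Aldh1a2 (0.107). Crabp2 and Rarb, and Aldh1a3 and Aldh1a1, overlapped there. In MSC the level per kb of Aldh1a3 was thus above the ranges of both other dehydrogenases, at 12.01 to 23.2 against 0.200 to 1.97 for Aldh1a2 and 0.375 to 0.948 for Aldh1a1. In TAC the range of Aldh1a3, 1.83 to 2.59, overlapped that of Aldh1a1, 0.692 to 2.27.

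**Figure D3:**
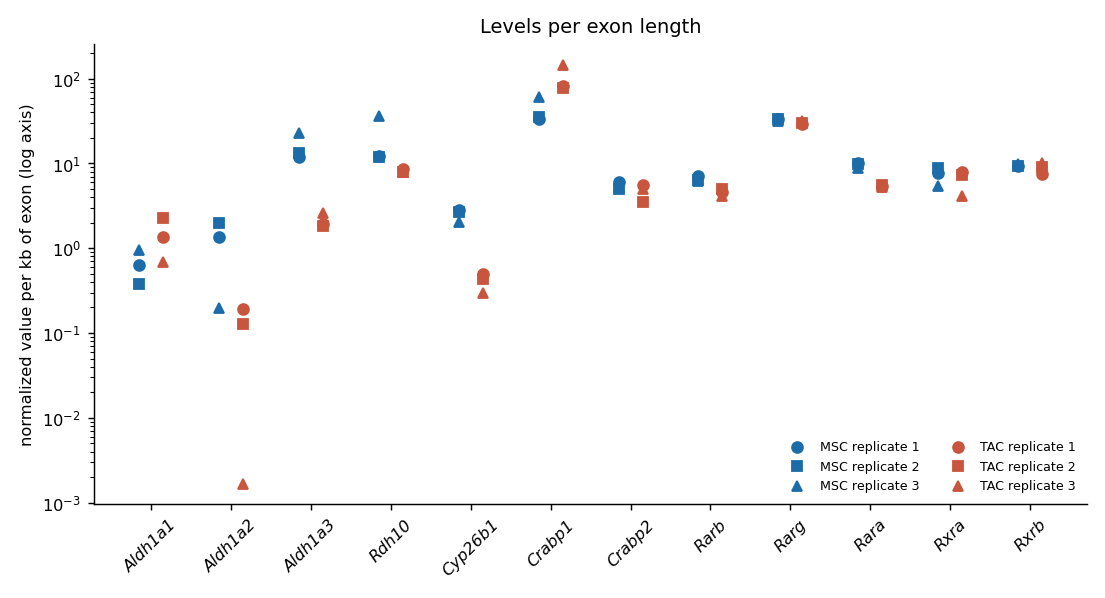
Normalized value per kb of exon (y axis, log scale) of the 9 genes and of the receptors Rara, Rxra and Rxrb in every MSC library (blue) and TAC library (red). Crabp1 and Rarg have the highest means in both groups, Rdh10 in MSC replicate 3 lies above Rarg, and the lowest point, Aldh1a2 in TAC replicate 3, stands for 0 reads plus the 1 read that the deposited values contain.

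The rest of the pathway was examined with 59 further retinoid genes, of which 49 were in the table and 36 reached the mean value of 1 needed for testing. None of the 36 passed the adjusted threshold in limma or in voom. Voom had 5 at an unadjusted p under 0.05, and 2309 of all 15391 genes. In limma 3 had an unadjusted p under 0.05 toward MSC and 3 toward TAC, where 6.43% and 5.42% of all genes did so. The median log2 difference of the 36 was -0.03. The differences were thus split evenly, with 18 genes lower and 18 higher in TAC.

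Among retinoid receptors and their carrier, 6 of 6 genes were tested. Rara, the broadly expressed receptor, measured 43.0, 41.8 and 37.4 in MSC against 22.9, 23.9 and 22.3 in TAC, a log2 difference of -0.79 (SE 0.25, limma adjusted p 0.280). All MSC values were above all TAC values. Rxrg, a partner receptor, was 2.53, 3.77 and 10.1 in MSC and 14.1, 15.3 and 27.7 in TAC, a log2 difference of 1.75 (SE 0.56, limma adjusted p 0.280). Fabp5, a fatty acid carrier that can also bind retinoic acid, differed by 1.82 (SE 0.74, limma adjusted p 0.396), and it had no read in MSC replicate 3. The partners Rxra and Rxrb differed by -0.21 and -0.11, less than their SE of 0.35 and 0.27. Per kb of exon, the RAR genes ranked Rarg, Rara, Rarb in both groups, at 32.9, 9.51 and 6.60 in MSC and at 30.3, 5.38 and 4.57 in TAC. The ranges of Rara and Rarb lay apart in both groups.

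Among uptake and storage genes, 3 of 8 were tested. Stra6, a membrane receptor for retinol-carrying plasma protein, had no read in MSC replicate 3, overlapping groups and a log2 difference of 1.00 (SE 0.67, limma adjusted p 0.626), with 0.18 in replicates 1 and 2. Lrat, which esterifies retinol for storage, reached at most 0.753 in any library and was not tested. Rbp4 was not analysed here.

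Of 15 alcohol and retinaldehyde oxidoreductases 9 were tested, and none had an unadjusted p under 0.05. Dhrs3, which turns retinaldehyde back into retinol, followed the library sets and not the groups. It was 19.6 to 20.8 in replicates 1 and 2 of both groups and 76.6 and 73.4 in MSC and TAC replicate 3, so that its log2 difference was 0.01 (SE 0.68, limma adjusted p 0.998).

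Of the other hydroxylases, 2 of 3 were tested. Cyp26a1, whose promoter element is shown above, measured 1.07, 0.898 and 0.00666 in MSC against 2.47, 1.61 and 8.65 in TAC. The groups did not overlap, in the order opposite to Cyp26b1, and the value in MSC replicate 3 stands for 0 reads. The log2 difference was 1.49 (SE 0.68, limma adjusted p 0.448), 0.60 between the libraries numbered 1 and 2 and 3.26 between those numbered 3. Per kb of exon its mean level in TAC, 2.37 ± 2.14 (SD, n = 3), was above the 0.406 ± 0.103 of Cyp26b1. Cyp2s1 had the direction of Cyp26b1, at 1.81 to 2.14 in MSC and 0.296 to 0.941 in TAC, a log2 difference of -0.85 (SE 0.48, limma adjusted p 0.551). Cyp26c1 had a mean too low for testing.

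The next list held 16 further genes known to respond to retinoic acid that were in no other list. Of these, 5 were tested, and all 5 had negative differences, against 48.5% of all genes tested. Rarb and Cyp26a1, whose elements are shown above, were in other lists and so not counted, and differed by -0.51 and 1.49. Among the 5, Ret had no read in either replicate 3 library, and Hic1 was at -1.96 between the libraries numbered 1 and 2 and 0.12 between those numbered 3. Tgm2, a transglutaminase, measured 20.6, 22.3 and 30.03 in MSC against 3.53, 2.40 and 0.193 in TAC, a log2 difference of -3.25 (SE 0.60, limma adjusted p 0.0932). Rarres2, which encodes the chemoattractant chemerin, was 14.2, 9.26 and 39.7 in MSC and 1.43, 1.58 and 3.01 in TAC, a log2 difference of -2.66 (SE 0.62, limma adjusted p 0.157). For both genes every MSC library exceeded every TAC library. Of the 11 corepressor and coactivator genes, all tested, none had an unadjusted p under 0.05, and their differences ran from -0.74 to 0.74.

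**Figure D4:**
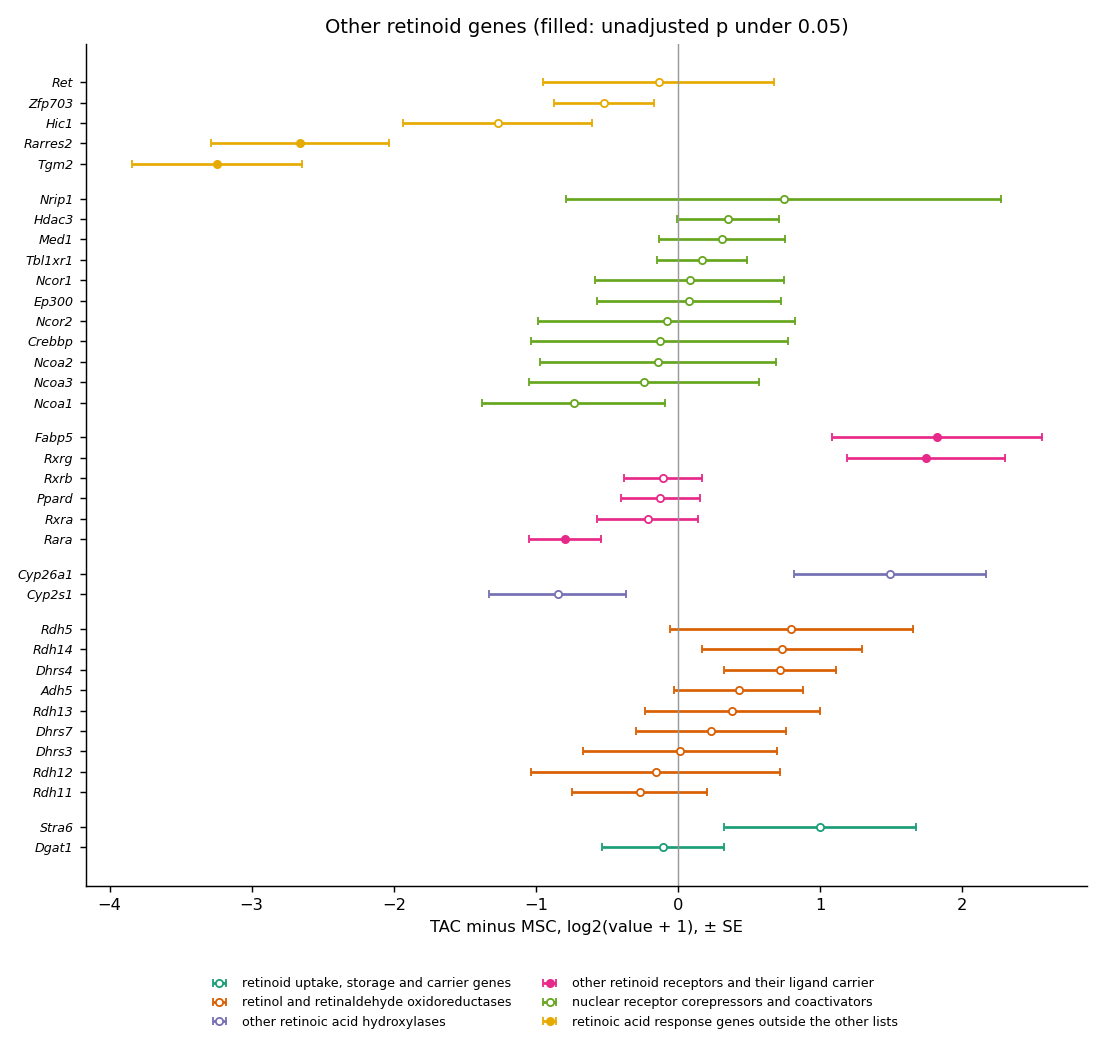
Difference TAC minus MSC on the log2(value + 1) scale with its SE (x axis) for other retinoid genes tested, coloured by list, with filled points for an unadjusted p under 0.05. The filled points are Tgm2, Rarres2 and Rara toward MSC and Rxrg and Fabp5 toward TAC.

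Markers of other cells differed between the same libraries. All 8 smooth muscle and pericyte markers were higher in every MSC library than in any TAC library, 5 of them past the adjusted threshold, and their summed value was 863 to 1588 in MSC and 110 to 136 in TAC. The summed value of 8 endothelial markers was 184 to 264 in MSC and 106 to 113 in TAC, that of 7 Schwann cell markers 24.3 to 49.9 and 8.58 to 19.3, and that of 6 dental follicle and periodontal markers 154 to 178 and 109 to 129. The summed levels of these lists, as those of Aldh1a3, Cyp26b1, Rdh10 and Rarb, did not overlap between groups. Beyond smooth muscle, none of their markers passed the adjusted threshold in limma. At an unadjusted p under 0.05 toward MSC were 3 endothelial, 1 Schwann cell and 1 follicle marker, and 6.43% of all genes tested. Single markers without overlap toward MSC numbered 4 of 8 endothelial, 2 of 5 Schwann cell and 3 of 5 follicle markers tested, against 12.2% of all genes tested. The endothelial genes Kdr and Plvap differed by 0.0015 and 0.046 on the log2 scale. The summed level of 8 macrophage markers overlapped, at 86.7 to 195 in MSC and 49.9 to 104 in TAC, and 3 of the 7 tested were higher in MSC without overlap. Proliferation markers were higher in TAC on average for all 8, as was Crabp1, with 1 past the adjusted threshold and sums of 114 to 208 in MSC and 319 to 1000.2 in TAC. The sum is lowest in replicate 3 of each group and is made up mostly of Mki67 and Top2a. Among TAC libraries Mki67, Top2a, Ccna2 and Ccnb1 were lowest in replicate 3, Cdk1, Bub1 and Aurkb were highest there, and Plk1 hardly varied. Within replicate 3, Ccna2 was lower in TAC than in MSC, at a log2 difference of -0.25. Dental epithelial markers summed to 300 in MSC replicate 3 and to 2159 to 3659 in the other 5 libraries, odontoblast markers to 562 and to 3314 to 5163, and osteoblast markers to 1914 in TAC replicate 3 and to 347 to 479 in the others. All 9 epithelial markers tested were higher in TAC on average, 7 of them with the same direction in both library sets. Of these 9, 5 did not overlap and 2 had an unadjusted p under 0.05, against 12.3% and 5.42% of all genes toward TAC. No marker had fewer than 3 reads in all 6 libraries. The part of these cells in the differences of the retinoic acid genes was not tested.

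The profiles most like those of the 3 most abundant members were looked up over the 6 libraries, by Pearson correlation of log2(value + 1) among the genes tested, as a description. Rdh10 was most like Tmem5, Ifi209 and Olfr78 (r of 0.999 each), which shared its peak in MSC replicate 3. Crabp1 was most like Hn1 (r = 0.999), Mtx2 (0.999) and Xpo1 (0.998), highest in TAC replicate 3. Rarg was most like Zfp983 (0.997), Lrrc45 (0.991) and Mbd6 (0.985), highest in MSC replicates 1 and 2. With 6 libraries in sets that stand apart, these values describe the libraries and are no test.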

How the data were processed

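Raw reads were trimmed and aligned to mm10 with TopHat by the authors (TopHat2 2.0.8, with CASAVA 1.8.2 and Partek also named in the submitters' processing notes). The methods name RPKM, but the deposited values behaved as a signal: reads plus 1, scaled per library, not per length. Each library has a smallest value, taken as that of 1 added read, and dividing by it and subtracting 1 gave estimated reads. Of values between 1 and 50 reads, 60.7% to 71.6% per library were whole within 0.01, so the tests given above did not model counts. Voom on the estimated reads was run as an alternative only. How reads were counted, and whether by strand, is not given in the sources used here. Libraries held 20203159 to 108156380 estimated reads.

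limma 3.58.1 in R 4.3.3 was fitted to log2(value + 1) with a variance trend, for 15391 genes whose mean reached 1. The pseudocount understates changes of low genes. P-values were two-sided and Benjamini-Hochberg adjusted with a threshold of 0.05. The fit was tested on simulated data for TAC minus MSC, where 159 of 159 changed genes with a simulated log2 change of 2 and 6 unchanged genes were called among 15187. The simulation held no library sets. Groups and replicate numbers came from the sample titles. The methods give n = 3 mice per group, and p-values measure the spread between these libraries. Deviations from group means correlated at 0.477, 0.465 and 0.517 for same-numbered samples, which met the minimum of 0.1 set for a replicate block. They correlated as well at 0.480 and 0.462 between numbers 1 and 2, so the values set replicate 3 apart and do not tell pair 1 from pair 2.

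The genes and lists were chosen with earlier results of these data known. Named were all members, Rara, Rxra, Rxrb, Dhrs3, Rbp4, Stra6 and Fabp5, any listed retinoid gene with an unadjusted p under 0.05, and the 3 genes most like each of the 3 most abundant members. A further gene that the rule names is part of the counts and is not reported here. Cyp26a1, Cyp26c1, Cyp2s1, Hic1, Ret, Lrat, Bco1 and the single marker genes were named after their values were seen. Promoter sequences are from RefSeq (GRCm38.p6), searched on both strands. Coordinates are 1-based on mm10, with the deposited end lowered by 1. Alternatives were other pseudocounts, filters, scalings and variance models, voom, the block, library kind as a factor, and fewer libraries.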

Additional observations from a re-analysis of the deposited data

How the results depend on the processing

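No member changed direction under any alternative run, but none of these runs used replicate 3 alone. Within replicate 3 Aldh1a1 (-0.30) and Rarg (0.02) had the opposite direction. Aldh1a3 kept its call in 10 of 17 alternatives and lost it without the variance trend (adjusted p 0.0765), with limma voom on estimated reads (0.199) and in 5 of the 6 fits that left out a library, and its adjusted p ran from 4.42e-07 to 0.228. Crabp1 passed in 3 of 17 alternatives and Cyp26b1 in 3 of 17. With the replicate block 2 members passed, with 136 genes toward MSC and 93 toward TAC, and the block changed no other call of a member. With library kind (replicate 3 against replicates 1 and 2) as a factor 3 members passed (Aldh1a3, Cyp26b1 and Crabp1), as did 11.8% of all genes (1010 toward MSC and 804 toward TAC). In that fit 5 other retinoid genes passed. An unadjusted p under 0.05 was found for 12 of the 36 tested and for 4554 of all 15391 genes. With replicates 1 and 2 only, 8 members passed (8 also unadjusted), all but Crabp2, but so did 44.2% of all genes (3717 toward MSC and 3079 toward TAC). There 19 other retinoid genes passed and 22 had an unadjusted p under 0.05, as did 7983 of all 15391 genes. Voom gave 6 genes higher in MSC, 0 higher in TAC and 0 members, with 2309 genes and 2 members at an unadjusted p under 0.05. Without the variance trend there were 29 higher in MSC, 0 higher in TAC and 0 members, with 1806 genes at an unadjusted p under 0.05. A pseudocount of 0.1 gave 34 genes higher in MSC, quantile normalization gave 27 higher in TAC, and a pseudocount of 5 and quantile normalization each let 1 other retinoid gene pass (Tgm2).

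When each library was left out in turn, the genes called ran from 0 to 201 toward MSC and from 0 to 91 toward TAC, members called from 0 to 2, members at an unadjusted p under 0.05 from 3 to 5, and other retinoid genes at that level from 3 to 9, with 0 passing in each. Without MSC replicate 1 or 2 or TAC replicate 1 or 2 limma called 0 genes, with 1028 to 1367 at an unadjusted p under 0.05. With a filter at a mean of 5, Aldh1a1, Aldh1a2 and Crabp2 were not tested. The cause of these changes was not tested. The Aldh1a2 values in TAC rest on 19 reads or fewer per library.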
